A study of Homo sapiens with 4 samples.

Results

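The keratin family was examined in 2 human cell lines, ES2 and H4, on 1 Illumina HumanHT-12 V4 BeadChip array for each line and treatment. Its members were all probes whose gene name in the deposited table is KRT followed directly by a number, which gave 88 of the 47229 probes and 70 of the 30818 gene names. Of these names, 55 are keratin genes and 15 are keratin pseudogenes. The names KRTHA5 and KRTHB6, older names of hair keratins, fall outside this rule, and neither was detected on any array. The groups were ES2 cells given 20 µM GANT61, ES2 cells given DMSO, H4 cells given 20 µM GANT61 and H4 cells given DMSO, each for 48 h. GANT61 is a small molecule inhibitor of the transcription factors GLI1 and GLI2, which act at the end of the Hedgehog pathway, and DMSO is its solvent. ES2 is an established ovarian carcinoma line. H4 is an established line usually described as a neuroglioma, although its labels name an ovarian adenocarcinoma of epithelial morphology, as for ES2.

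Keratins are the intermediate filament proteins of epithelial cells. A filament is built from pairs of a type I and a type II keratin, so cells normally make at least one keratin of each type. Simple keratins such as KRT8 and KRT18 belong to single-layered epithelia, stratified keratins such as KRT5, KRT14, KRT1 and KRT10 to layered epithelia such as the epidermis, and hair keratins such as KRT34, KRT81 and KRT86 to the hair shaft. A further class is made in the sheaths of the hair follicle. Most type I genes lie in a cluster on chromosome 17 and the type II genes in a cluster on chromosome 12, next to KRT18.

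The promoters of a hair keratin that was higher with GANT61 in H4 (KRT34), of its 2 neighbours in the type I cluster that no array detected (KRT33B and KRT31), and of a type I keratin detected on all 4 arrays (KRT10) are shown to set these genes side by side. Each run holds the 120 bases before the RefSeq transcription start, 5′ to 3′, on the minus strand of GRCh38.p14. Capitals mark the TATA box sequence TATAAA. The regions are chr17:41382307-41382426 for KRT34, chr17:41369814-41369933 for KRT33B, chr17:41397609-41397728 for KRT31 and chr17:40822615-40822734 for KRT10.
KRT34: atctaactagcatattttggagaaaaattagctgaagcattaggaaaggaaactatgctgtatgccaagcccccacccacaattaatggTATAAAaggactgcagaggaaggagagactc
KRT33B: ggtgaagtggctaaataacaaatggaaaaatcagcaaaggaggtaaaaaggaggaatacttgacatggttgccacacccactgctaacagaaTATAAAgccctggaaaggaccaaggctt
KRT31: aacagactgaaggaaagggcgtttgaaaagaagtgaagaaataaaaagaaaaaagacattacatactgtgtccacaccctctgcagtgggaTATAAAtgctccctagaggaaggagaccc
KRT10: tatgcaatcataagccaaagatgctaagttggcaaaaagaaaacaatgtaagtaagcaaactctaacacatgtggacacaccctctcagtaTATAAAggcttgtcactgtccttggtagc

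All 4 of these promoters hold TATAAA, and its first base lies 31 bases before the start in KRT34, 28 in KRT33B and 29 in KRT31 and KRT10. RefSeq promoters were at hand for 34 of the 55 keratin genes, and not for KRT7, KRT18, KRT80, KRT81 or KRT86. Within the 250 bases before the start and on either strand, 21 of the 34 held TATAAA, against 10.7% of all 35116 promoters. The sequence CTTTGA, the core bound by LEF1 and TCF factors, stood in 11 of the 34, among them KRT31 and KRT33B but neither KRT34 nor KRT10, against 11.2% of all promoters. The GLI consensus GACCACCCA and the AP-1 sequence TGANTCA stood in none of the 34, against 0.199% and 6.57% of all promoters. At these shares 34 promoters may hold none, and the promoters of KRT80 and KRT81 were not searched. TATAAA and its reverse complement TTTATA can overlap each other. A match describes letters in this window and is not evidence of binding.

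The labelled epithelial origin was set against marker genes first. Of 12 epithelial markers, among them the adhesion proteins EPCAM and CDH1, no ES2 array detected any, and H4 detected MUC1 on both arrays and ELF3 on 1. Of 10 mesenchymal markers, 8 were detected on at least 1 ES2 array and 7 on both H4 arrays. VIM, the intermediate filament protein of mesenchymal cells, had an intensity of 14998 with GANT61 and 15824 with DMSO in ES2, and of 5583 with GANT61 and 5686 with DMSO in H4. Of 8 glial markers, H4 detected OLIG2 and SLC1A3 on both arrays and ES2 detected SLC1A3 on both. With detection set at p under 0.01, the detected share of the array was 32.6% and 33.4% for ES2 and 27.3% and 30.6% for H4. In such bulk samples fewer cells of a type and less RNA per cell cannot be told apart. The detection values name the line but no treatment, so detection is given below as the number of a line's arrays, 0 to 2.

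Few keratins were detected. Of the 55 keratin genes, 10 were detected on at least 1 of the 4 arrays, 45 on none. The share over all named genes was 44.2%, and over named protein-coding genes 58.8%. Counted over all 70 names, pseudogenes included, ES2 detected 12 on at least 1 array, against 39.9% of all named genes, and H4 detected 8, against 37.8%. On both arrays of the line the counts were 11 in ES2 and 6 in H4, against 36.4% and 31% of all named genes.

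The detected members came from 4 of the classes of keratin genes. Of the 5 simple keratins, ES2 detected KRT7, KRT8 and KRT18 on both arrays, and H4 detected KRT18 on both and KRT8 on 1. KRT19 and KRT20, the other simple keratins, were detected on no array. Of the 17 stratified keratins, ES2 detected KRT10 and KRT15 and H4 detected KRT10 and KRT17, each on both arrays, which leaves 14 undetected in either line. KRT5 and KRT14, the pair that defines the basal epidermis, were among the undetected, and so was KRT1, the usual partner of KRT10. Of the 17 hair keratins, ES2 detected KRT34, KRT81 and KRT86 on both arrays, and H4 detected KRT81 on both and KRT34 on 1. None of the 9 keratins of the hair follicle sheath was detected. Of the 6 other epithelial keratins, KRT80, which is made in many epithelia, was detected on both arrays of each line, while KRT23, KRT24, KRT77, KRT78 and KRT79 were detected on none.

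**Figure D1:**
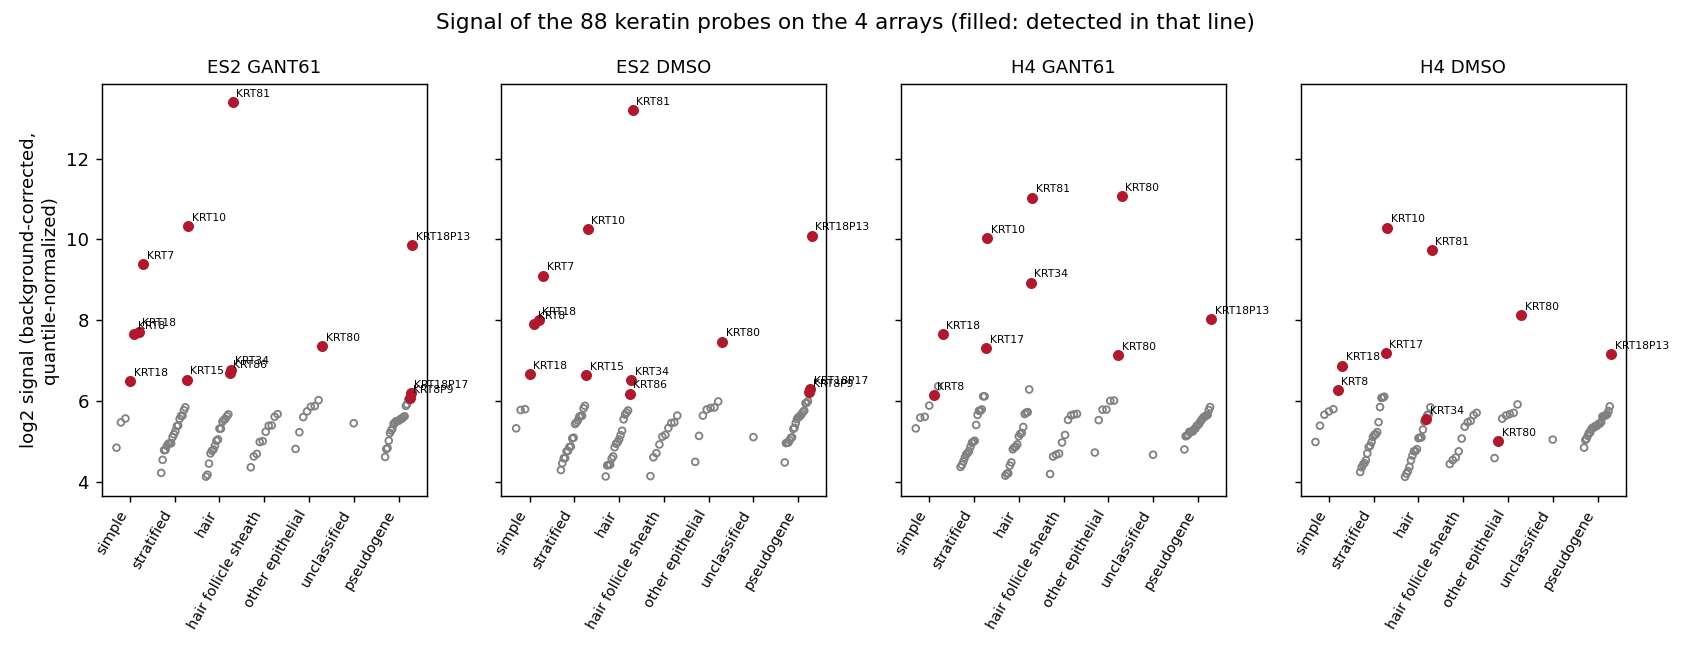
Log2 signal (y axis, background-corrected and quantile-normalized) of the 88 keratin probes by class (x axis) on each of the 4 arrays. Filled points are probes detected on at least 1 array of that line. The open points are undetected probes, and KRT34 and KRT80 stand far higher on the H4 GANT61 array than on the H4 DMSO array.

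By filament type, ES2 detected 4 of 28 type I genes (KRT10, KRT15, KRT18 and KRT34) and 5 of 26 type II genes (KRT7, KRT8, KRT80, KRT81 and KRT86) on both arrays. H4 detected 3 type I genes (KRT10, KRT17 and KRT18) and 2 type II genes (KRT80 and KRT81) on both arrays. KRT34 and KRT8 came in addition on 1 H4 array each. Each line thus had detected members of both filament types.

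The detected genes of the type II cluster lay at its ends. In RefSeq gene order the cluster on chromosome 12 holds 27 keratin genes, KRT18 included, all of which have a probe. The first 4, KRT80, KRT7, KRT86 and KRT81, and the last 2, KRT8 and KRT18, were detected in at least 1 line. The 21 genes between them, which comprise the remaining hair keratins, the follicle sheath keratins and the epidermal keratins KRT5, KRT6A, KRT6B, KRT6C, KRT1 and KRT2, as well as KRT3, KRT4, KRT76, KRT77, KRT78 and KRT79, were undetected without a break. KRT81 lies within the span of KRT86, and the 2 genes are close paralogs, so signal on their probes may be shared. In the type I cluster on chromosome 17, 4 of 28 genes were detected (KRT10, KRT34, KRT15 and KRT17), and no 2 of them were neighbours.

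**Figure D2:**
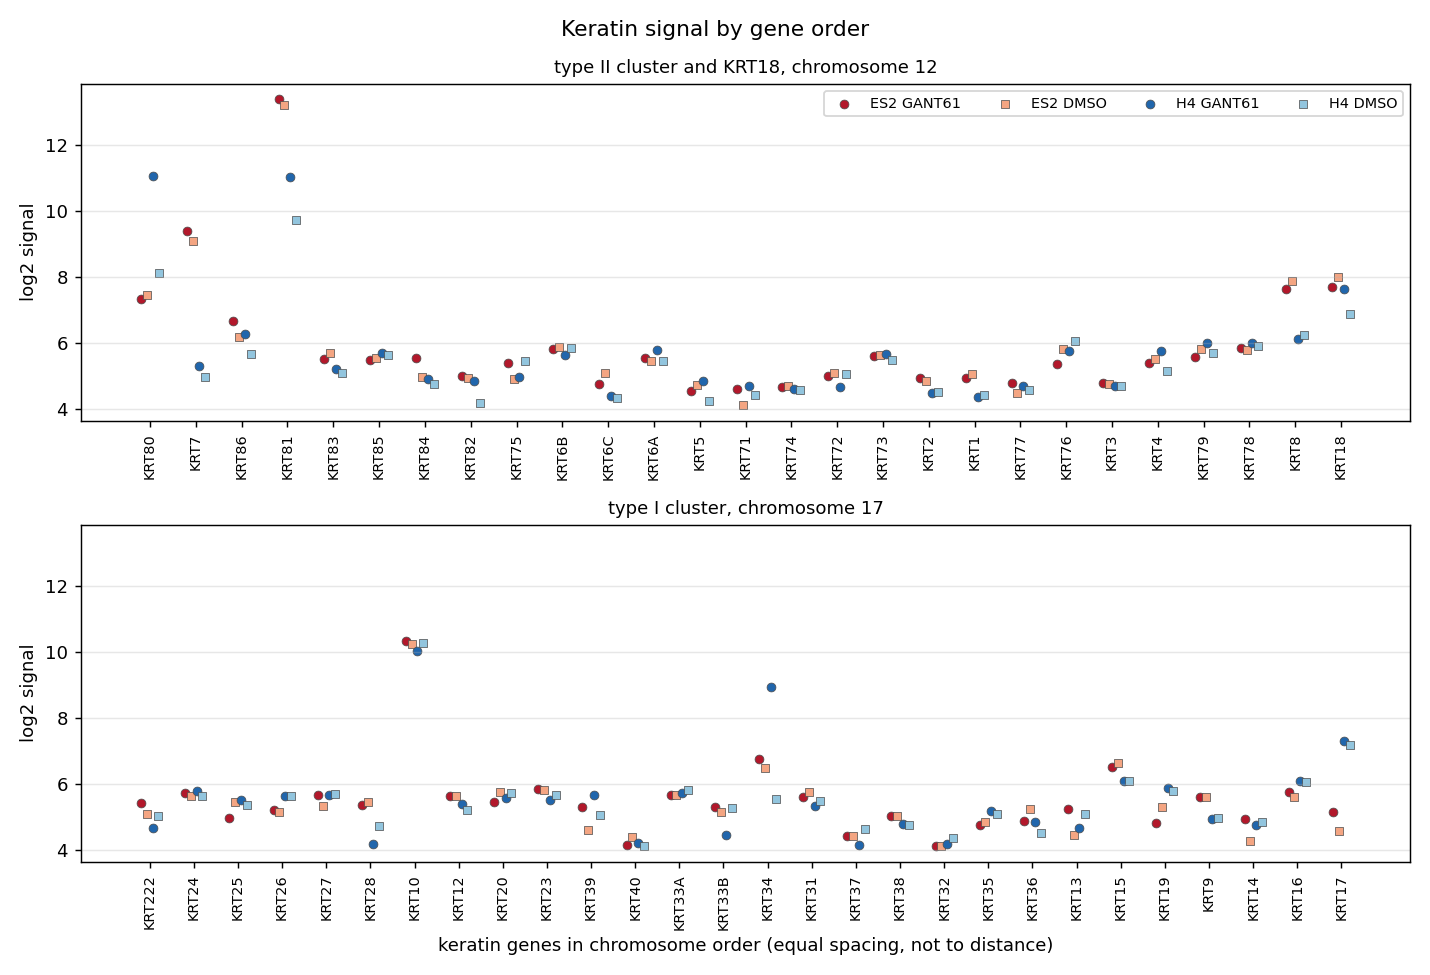
Log2 signal (y axis) of each keratin gene, by its brightest probe, in chromosome order (x axis, equal spacing) on the 4 arrays. On chromosome 12 the detected genes are the first 4 and the last 2 of 27, and on chromosome 17 they are KRT10, KRT34, KRT15 and KRT17.

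Undetected keratin probes give the level of background on the same scale. Over 73 such probes the deposited intensity ran from 44.8 to 86.0 with a median of 64.5 on the ES2 GANT61 array, and from 45.0 to 84.2 with a median of 63.6 on the ES2 DMSO array. On the H4 GANT61 array it ran from 63.1 to 126.8 (median 90.7), and on the H4 DMSO array from 61.7 to 125.5 (median 89.95). On the ES2 GANT61 array the median was 67.6 for undetected simple, 61.1 for stratified, 60.1 for hair and 61.5 for follicle sheath keratins, 72.7 for the other epithelial keratins and 68.3 for pseudogenes. The deposited values were normalized separately in each line, and intensities of the 2 lines are on different scales.

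The keratins with ratios of at least 2-fold were all in H4. Of the 8 keratin names measured there, 3 were at least 2-fold higher with GANT61 than with DMSO and none at least 2-fold lower. Over all 11635 genes measured in H4, 7.52% were at least 2-fold different, 4.04% higher and 3.48% lower. The 3 keratins were KRT34, KRT80 and KRT81. All ratios below are on the background-corrected, quantile-normalized log2 scale, and with 1 array a group they carry no replicate error and no test.

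KRT34, a type I keratin of the hair cortex, had an intensity of 480.0 on the H4 GANT61 array, against 102.4 on the H4 DMSO array. The DMSO value lies inside the range of the undetected keratin probes, and 1 of the 2 H4 arrays detected the probe. The measured log2 ratio was 3.39, and it was 2.69 with an offset of 50, 2.62 without background correction and 2.23 on the deposited values as they stand. With the DMSO array held at the lowest signal of a detected probe, KRT34 was at least 3.70-fold higher with GANT61 on the deposited values, the lowest of the bounds in 3 settings. In ES2, where both arrays detected it, KRT34 had 138.7 with GANT61 and 117.0 with DMSO, a log2 ratio of 0.27.

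KRT80, a type II keratin, had an intensity of 1846 with GANT61 and 305.2 with DMSO in H4, a 7.68-fold higher value with both arrays detecting it. A second KRT80 probe had 185.2 with GANT61 and 82.8 with DMSO in H4. It was detected on 1 H4 array, and with the DMSO array at its floor it was at least 1.43-fold higher on the deposited values, with a measured log2 ratio of 2.14 against 2.94 for the first probe. Both probes thus stood higher with GANT61 in H4. In ES2 the first probe had 200.8 with GANT61 and 215.8 with DMSO, a log2 ratio of -0.11, and the second was detected on no ES2 array.

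KRT81, a type II hair keratin, had an intensity of 1803 with GANT61 and 791.0 with DMSO in H4, which is 2.46-fold higher. In ES2 it had 13020 with GANT61 and 11445 with DMSO, a log2 ratio of 0.19. Its neighbour and paralog KRT86 was detected on no H4 array, where it had 133.6 with GANT61 and 107.7 with DMSO. In ES2 both arrays detected KRT86, with 131.0 with GANT61 and 94.1 with DMSO. That log2 ratio of 0.50 (1.41-fold higher) was the highest of the 12 keratin names measured in ES2. It ran from 0.34 without background correction to 0.65 after median scaling. The ES2 DMSO value lies near 89.9, the lowest intensity there of a probe detected on both ES2 arrays.

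**Figure D3:**
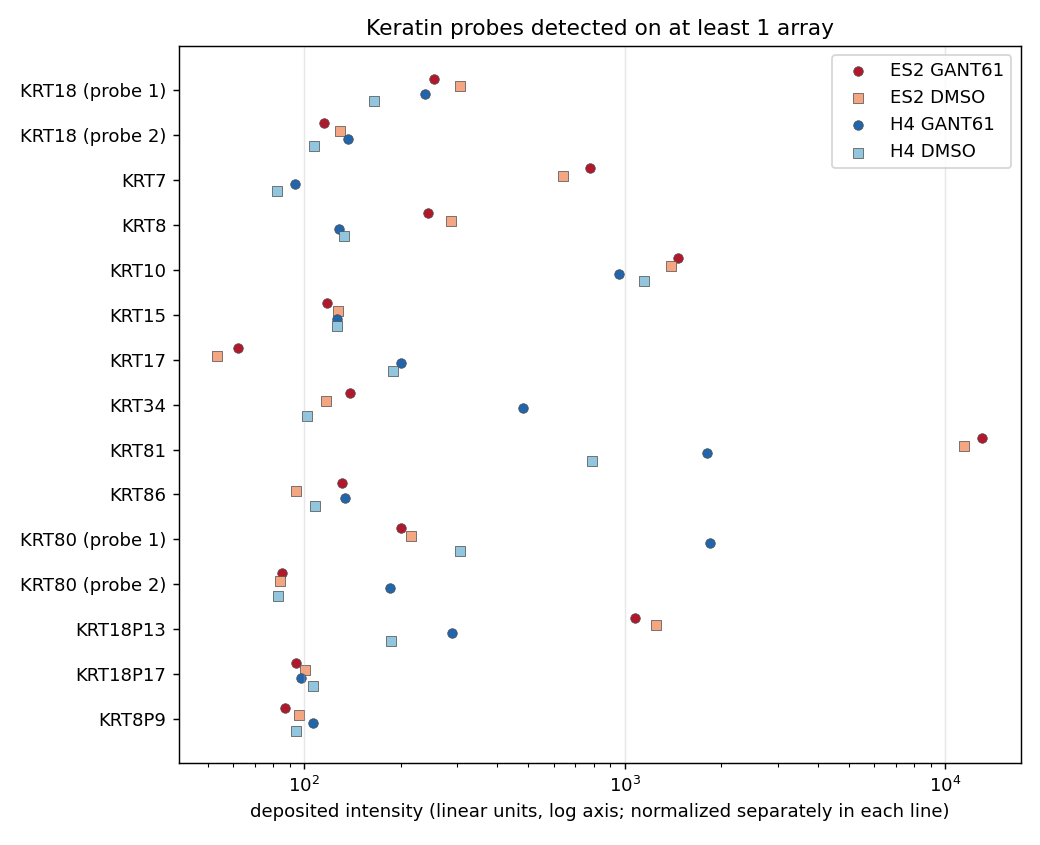
Deposited intensity (x axis, log scale) of the 15 keratin probes detected on at least 1 array, one row per probe, with circles for GANT61 arrays and squares for DMSO arrays. KRT34, both KRT80 probes and KRT81 have their H4 GANT61 circle well to the right of their H4 DMSO square, while the ES2 pairs lie close together.

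Of the simple keratin pair, KRT18 alone could be compared between treatments in H4. KRT18, the type I partner, had 237.5 with GANT61 and 165.4 with DMSO, 1.72-fold higher. Its second probe, detected on no H4 array, had a log2 ratio of 0.70 against 0.78. KRT8, the type II partner, had 128.0 with GANT61 and 132.8 with DMSO, and since 1 array detected it and the values lie near the floor no fold is given. In ES2 both partners were lower with GANT61. KRT18 had 253.6 with GANT61 and 306.0 with DMSO, a log2 ratio of -0.29, and its second probe had -0.19. KRT8 had 242.9 with GANT61 and 286.8 with DMSO, a log2 ratio of -0.25. KRT7, a simple type II keratin of ducts, went the other way in ES2, with 777.7 with GANT61 and 641.1 with DMSO, a log2 ratio of 0.28. It was undetected in H4.

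Markers of cell type also had ratios in H4 beside these keratins, and their part in the keratin ratios was not tested. Of the 7 mesenchymal markers measured in H4, 6 were lower with GANT61 (median log2 ratio -0.51, beside -0.05 over all genes). At least 2-fold lower were 2, S100A4 (-1.82) and SNAI2 (-1.12), against 3.48% of all genes. TWIST1 had -0.83 and SPARC -0.51. ZEB2 (-0.08) and VIM (-0.04) lay near 0, and CDH2 (0.25) was higher. The summed intensity of the 10 mesenchymal markers was 8927 with GANT61 and 10039 with DMSO in H4. In ES2 it was 19085 with GANT61 and 19617 with DMSO, most of it from VIM (14998 with GANT61 and 15824 with DMSO). Marker by marker, 6 of the 8 measured in ES2 were higher with GANT61 and 2 lower. Their median log2 ratio was 0.21, beside 0.00 over all genes. Of the 3 glial markers measured in H4, 1 was higher with GANT61 and 2 were lower (median log2 ratio -0.02). OLIG2 had a log2 ratio of 1.65, SLC1A3 had -0.50, and SOX2, detected on 1 H4 array, had -0.02. The 8 glial markers summed to 1157 with GANT61 and 1090.2 with DMSO in H4. The epithelial marker MUC1 had -0.72 in H4, and the 12 epithelial markers summed to 1117 with GANT61 and 1213 with DMSO. Of these, 10 were detected in neither line, EPCAM and CDH1 among them, so most of that sum comes from undetected markers.

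The stratified keratins had small ratios. KRT10 had 1465 with GANT61 and 1390 with DMSO in ES2 (log2 ratio 0.08), and 962.0 with GANT61 and 1147 with DMSO in H4 (log2 ratio -0.26). KRT15, a keratin of basal cells and the hair follicle bulge, had 118.1 with GANT61 and 127.4 with DMSO in ES2 (log2 ratio -0.12). KRT17, which is made in skin appendages and in activated epidermis, had 199.9 with GANT61 and 189.5 with DMSO in H4 (log2 ratio 0.12). It was detected on no ES2 array.

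Among the pseudogenes, 3 of 15 were detected. KRT18P13, a pseudogene of KRT18, had 1076 with GANT61 and 1250 with DMSO in ES2, a log2 ratio of -0.23. In H4 it had 289.4 with GANT61 and 186.5 with DMSO, 1.84-fold higher. These ratios, from the brighter of its probes, have the signs of KRT18 in both lines (-0.29 in ES2 and 0.78 in H4). A second KRT18P13 probe was detected on no array, with log2 ratios of -0.20 in ES2 and -0.09 in H4. A pseudogene of this kind is close in sequence to its parent. The probe sequences were not analysed here, so which transcript the brighter probe reads cannot be told apart. KRT18P17 was detected on both ES2 arrays, with 94.4 with GANT61 and 101.0 with DMSO, and KRT8P9 on 1 ES2 array, with 87.4 with GANT61 and 96.5 with DMSO.

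In ES2, none of the 12 keratin names measured was at least 2-fold different, against 0.0812% of the 12310 genes measured there (0.0406% higher and 0.0406% lower). None reached 1.5-fold either, against 0.65% of all genes (0.341% higher and 0.309% lower), although KRT86 did so after median scaling, with a log2 ratio of 0.65. The ES2 ratios were above 0 for 5 names and below 0 for 7, with a median of -0.11, beside a median of 0.00 over all genes. In H4, 6 of 8 were above 0 and 5 were at least 1.5-fold higher (KRT34, KRT80, KRT81, KRT18P13 and KRT18), against 11.2% of all genes, with 12.5% lower and 23.7% in either direction. KRT18 was under 1.5-fold on the deposited values, with a log2 ratio of 0.52. The H4 median was 0.83, beside -0.05 over all genes. The undetected keratin probes had log2 ratios that ran from -1.03 to 0.79 in ES2 and from -0.81 to 0.65 in H4. These probes were selected for lying at background, so their range does not give the spread of detected genes. Their SD was 0.32 in ES2 and 0.29 in H4, against 0.20 and 0.59 over all genes measured. All the ES2 ratios named here lie inside the range of those probes. In H4 those of KRT34, KRT80, KRT81, KRT18P13 and KRT18 lie above it on this scale. This comparison is not a test. Disagreement between probes was taken across genes with a pair of detected probes. The SD of the difference between the 2 probes' log2 ratios, divided by the square root of 2, was 0.14 in ES2 (2525 genes) and 0.22 in H4 (1977 genes). The Pearson correlation of the 2 probes' ratios was 0.43 in ES2 and 0.83 in H4.

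**Figure D4:**
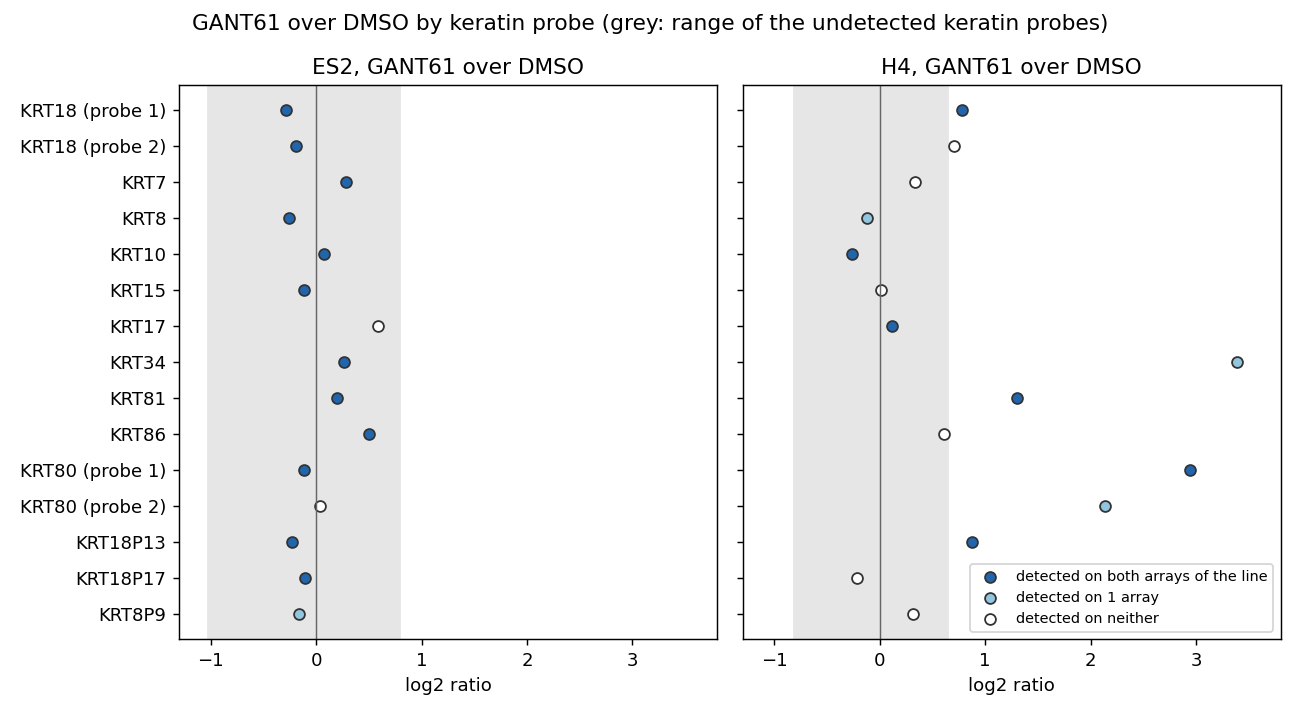
Log2 ratio of GANT61 over DMSO (x axis) for the 15 keratin probes detected on at least 1 array, in ES2 (left) and H4 (right), shaded by the number of the line's arrays that detected the probe. The grey band is the range of the 73 undetected keratin probes, -1.03 to 0.79 in ES2 and -0.81 to 0.65 in H4.

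The response common to both lines was tested with limma, cell line as a block, over 10312 genes detected in both lines, which leaves 1 residual degree of freedom. Of the 7 keratin names in that fit, 0 passed a Benjamini-Hochberg adjusted p under 0.05, against 0.0097% of all genes (1 gene), and 3 had an unadjusted p under 0.05, against 5.9% of all genes. KRT34 had a mean log2 difference of 1.83 ± 0.40 (SE, limma) and an adjusted p of 0.0915, with its H4 DMSO value at background. KRT80 had 1.41 ± 0.41 (adjusted p = 0.260, limma) and KRT81 had 0.75 ± 0.24 (adjusted p = 0.369, limma). The remaining 4, KRT18P13, KRT18, KRT8 and KRT10, had adjusted p = 1.00 (limma). KRT34 and KRT81 were higher with GANT61 in both lines, KRT80 in H4 alone, so the means over the lines rest largely on H4. The labels do not say that any 2 arrays come from separate cultures, and no spread between replicates enters these p-values. With 1 residual degree of freedom, limma moderates each gene's variance between the lines towards that of other genes. The SE can then be smaller than a gene's own 2 ratios would give, as for KRT80 with 2.94 in H4 and -0.11 in ES2.

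Each keratin was also compared between the lines on the same probe, without a test. On the common log2 scale, which was made by quantile normalization over the 4 arrays and has no test between lines, 4 of the 13 detected names were at least 2-fold higher in ES2 than in H4 on the GANT61 arrays and 3 at least 2-fold lower. Over 13633 genes the shares were 11.8% higher, 10.3% lower and 22.2% in either direction. On the DMSO arrays 5 were higher and 1 lower, against 10.3% higher, 9.18% lower and 19.5% in either direction. KRT81 was higher in ES2 than in H4, by 2.36 on the GANT61 arrays and 3.47 on the DMSO arrays on the log2 scale. The next 3 were near or below the floor in one line, and their folds are bounds without background correction, which are lower than those with it. KRT7, undetected in H4, was at least 5.79-fold higher in ES2 on the GANT61 arrays and at least 5.25-fold higher on the DMSO arrays. KRT8, detected on 1 H4 array, was at least 1.96-fold higher in ES2 on the GANT61 arrays and at least 2.40-fold on the DMSO arrays. The bound on the GANT61 arrays is under the 2-fold of the count above. KRT17, undetected in ES2, was at least 1.84-fold higher in H4 on the GANT61 arrays and at least 1.71-fold on the DMSO arrays, both under 2-fold, while the counts above use measured values.

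The difference between the lines was not the same on both treatments for KRT80 and KRT18, without a test. For KRT80 the difference of ES2 minus H4 was -3.71 on the GANT61 arrays and -0.66 on the DMSO arrays on the log2 scale. For KRT34 it was -2.16 on the GANT61 arrays, and none is given on the DMSO arrays, where its H4 signal was at background. For KRT18 it was 0.06 on the GANT61 arrays and 1.12 on the DMSO arrays. KRT10 lay within 0.30 on the log2 scale between the lines on both treatments, at 0.30 on the GANT61 arrays and -0.04 on the DMSO arrays.

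Genes that anchor or accompany keratin filaments had mostly smaller ratios, with 1 intermediate filament gene at least 2-fold different. Of 14 desmosome genes, which tie keratin filaments to cell contacts, 5 were measured in each line and none was 2-fold different, against the 0.0812% of all genes in ES2 and 7.52% in H4 given above. At these shares a list this short may hold none, and the same holds for the lists that follow. DSP, the plakin that binds keratins at the desmosome, was detected on 1 array of each line, with 85.7 with GANT61 and 93.8 with DMSO in ES2 and 116.1 with GANT61 and 123.5 with DMSO in H4. JUP, a desmosomal catenin, was detected on 1 H4 array and PKP2, a desmosomal plaque protein, on none. The desmosome median log2 ratio was 0.05 in ES2 and 0.34 in H4.

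Of 9 plakin and hemidesmosome genes, 6 were measured in ES2 and 5 in H4, with medians of 0.08 and 0.62 and none at 2-fold. PLEC, which links intermediate filaments to other cell structures, had 223.3 with GANT61 and 151.4 with DMSO in H4, a log2 ratio of 0.88, and -0.35 in ES2. MACF1, a crosslinker of actin and microtubules, had log2 ratios of 0.78 in H4 and 0.22 in ES2, and DST had 0.22 in H4 and 0.35 in ES2. PERP and PKP4, desmosome genes, had 0.65 and 0.57 in H4 and 0.10 and -0.19 in ES2.

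Of 16 other intermediate filament genes, 8 were measured in ES2 and 7 in H4, and 1 was at least 2-fold different. LMNB1, a nuclear lamin, had 153.0 with GANT61 and 336.9 with DMSO in H4, 3.09-fold lower, against a log2 ratio of -0.05 in ES2. LMNB2 had -0.52 in H4 and -0.08 in ES2, and SYNC, which binds desmin-type filaments, had 0.62 and 0.40. VIM had -0.04 in H4 and -0.08 in ES2. Of 12 genes for keratin binding and turnover, 8 were measured in each line and none was 2-fold different, with medians of -0.04 in ES2 and -0.09 in H4. CDK5RAP2 had a log2 ratio of -0.71 in H4 and -0.03 in ES2.

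Of 15 cornified envelope genes on the array, which keratinocytes make as they mature, 12 were detected in neither line, where 44.2% of all named genes were detected on at least 1 array. CNFN had a log2 ratio of -0.44 in H4. Of 14 epithelial transcription factors, 1 was measured in ES2 and 4 in H4, and 9 were detected in neither line. The detected share of this short list was not far below the 44.2% over all named genes, and the difference was not tested. Over named protein-coding genes the detected share was 58.8%. TP63, a regulator of stratified epithelia, was detected on both ES2 arrays, with 305.5 with GANT61 and 249.5 with DMSO, and on no H4 array. KLF4, a regulator of epithelial differentiation, was detected on 1 H4 array, with 187.9 with GANT61 and 99.2 with DMSO, and on no ES2 array. Its measured log2 ratio in H4 was 1.71, and its lowest bound was 1.45-fold higher, on the deposited values. By measured values KLF4 was the 1 factor of the 4 measured in H4 at least 2-fold higher, against 4.04% of all genes. No gene of these lists passed the limma test over both lines.

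**Figure D5:**
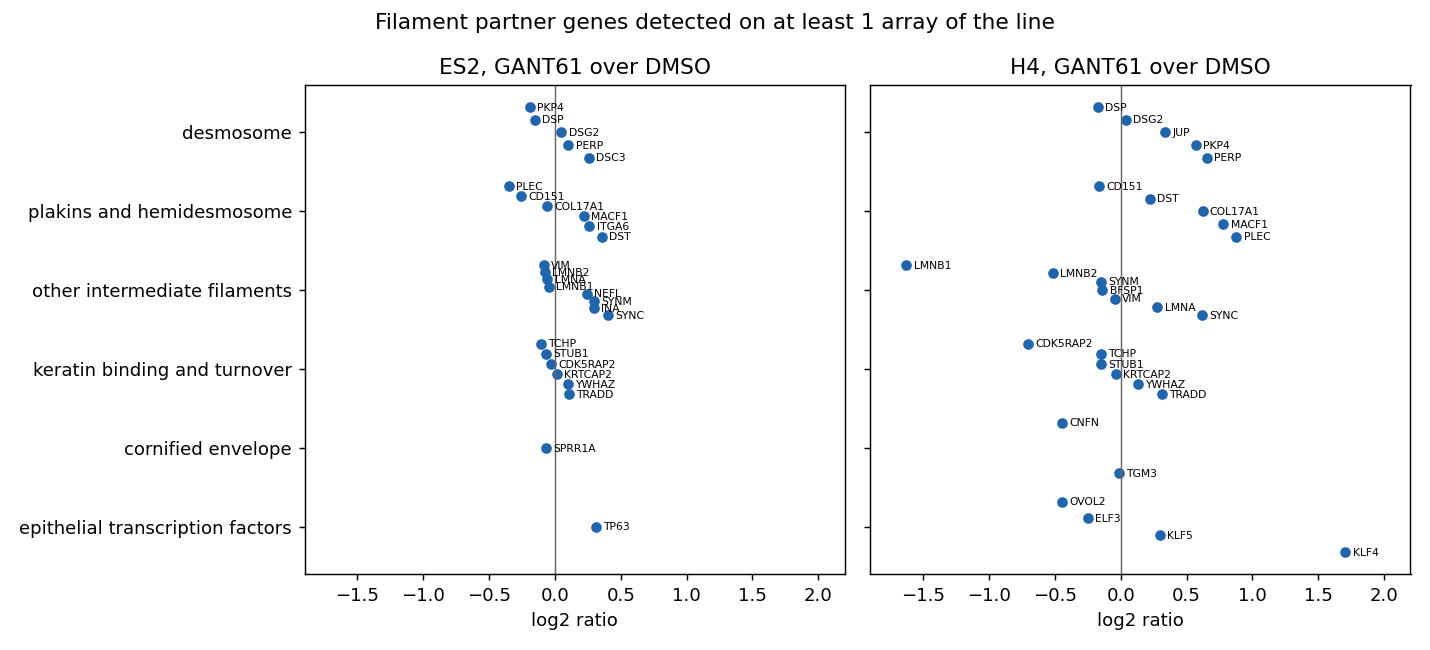
Log2 ratio of GANT61 over DMSO (x axis) for the plotted genes of 6 partner lists (y axis) detected on at least 1 array of the line, in ES2 (left) and H4 (right), each point a gene by its brightest probe. In ES2 the plotted genes lie between -0.35 and 0.40, and in H4 LMNB1 is the lowest at -1.63.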

How the data were processed

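Total RNA was amplified to biotinylated cRNA and hybridized to Illumina BeadChips, per the labels' protocols, and the software behind the values is not given in the sources used here. The deposited intensity table (47229 probes, linear scale) appears quantile-normalized within each line: the sorted values of a line's 2 arrays were nearly identical (median difference 0.00457% for ES2, 0.0103% for H4). A second deposited table gives a gene name and a detection p-value for each probe, per the file headers. Its 4 signal columns name no treatment and were not used.

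Intensities were background-corrected (normexp, offset 16), then quantile-normalized across all 4 arrays on the log2 scale in R 4.3.3 with limma 3.58.1, in place of the signals that were not normalized. Each gene took the values of its brightest probe and counted as detected on an array where any of its probes had p under 0.01. For a gene detected on 1 array, the brighter array was taken as the one that detected it, and the dimmer was held at or above the lowest signal of a probe detected on both arrays. Such bounds were taken in up to 3 settings, chosen after seeing the data, and the lowest is given. Names were updated through RefSeq of GRCh38.p14. Every keratin detected on at least 1 array is named, and of the partner genes the 12 with the largest ratios on detected pairs, plus DSP, JUP, PKP2, PLEC and VIM. Of the 12, some are not reported here and are not plotted. The epithelial transcription factors and the cell type markers named singly were chosen after their values were seen. The members and lists were chosen with earlier results of these data known. Precision is limited by having 1 array per line and treatment.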

Additional observations from a re-analysis of the deposited data

Results flagged for a closer look

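For 4 keratin names detected on all 4 arrays, the ratios of GANT61 over DMSO had opposite signs in the lines, which is why they are listed here, and none of these differences was tested. KRT80 had log2 ratios of 2.94 in H4 and -0.11 in ES2, a difference of 3.05. KRT18 had 0.78 in H4 and -0.29 in ES2, a difference of 1.07. KRT18P13 had 0.88 in H4 and -0.23 in ES2, a difference of 1.11. KRT10 had -0.26 in H4 and 0.08 in ES2, a difference of -0.34, which is the smallest of the 4 in size.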

How the results depend on the processing

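The count of keratins at least 2-fold different stayed at 3 in H4 (KRT34, KRT80 and KRT81) and at 0 in ES2, and the limma count at 0, under all 7 alternatives: no background correction, an offset of 50, median scaling, the deposited values, the mean of detected probes, detection at p under 0.05 and no detection filter. The log2 ratio in H4 ran from 2.23 to 3.39 for KRT34, from 2.54 to 2.94 for KRT80 and from 1.19 to 1.30 for KRT81 over the first 5, with the lowest KRT34 value on the deposited values. No ratio changed sign under them, and 10 of 100 moved by more than the SD between probes of a gene. Detected names were 14 in ES2 and 12 in H4 at p under 0.05, and 12 and 8 by the brightest probe alone. Counts over all genes moved more. At 2-fold in H4 they were 875 in the main setting, 567 without background correction and 437 on the deposited values. In ES2 they were 10, and 2 without background correction or with an offset of 50, 4 on the deposited values and 95 without a detection filter. The limma calls over all genes were 1, then 12 at p under 0.05 and 0 under the other 6. The cause was not tested. No paired analysis was possible because each group has 1 array and all share replicate number 1, apart from the cell line block in the limma test. The bounds, added after seeing the data, for KRT34 in H4 were 6.69-fold with background correction and 3.70-fold on the deposited values. Signal near background limits KRT34 and KRT8 in H4 and KRT86 in ES2.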
